A study of Mus musculus with 6 samples.

Results

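The cytosolic ribosomal protein genes encode the proteins of the large and small subunits of the ribosome that translates nuclear mRNAs in the cytosol. They were chosen by symbol as *Rpl* or *Rps* followed by a number, with an optional letter, x, l or p ending, together with *Rpsa*, *Rplp0*, *Rplp1* and *Rplp2*, and without the *Rps6k* kinases. Of 85 matching symbols, 3 are annotated as pseudogenes and were left out. The remaining 82 genes, 51 of the large and 31 of the small subunit, were among 23462 genes matched on the array. They were measured in brown adipose tissue (BAT), the heat-producing fat, of 3 wild-type (WT) and 3 miR-22 knockout (KO) male mice. The mice were 8 weeks old and each was hybridized to 1 single-dye Agilent array. The KO mice lack the microRNA miR-22 in the whole body, so differences in BAT need not arise in brown adipocytes. The study describes the controls as littermates, and the strain is not given in the sources used here.

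Ribosomal proteins are made in matching amounts and assembled with ribosomal RNA in the nucleolus. Their mRNAs are among the most abundant of most cells and begin with a run of pyrimidines, the 5′ terminal oligopyrimidine (TOP) motif, through which the kinase complex mTORC1 controls their translation. Control through this motif acts mainly on translation, which an array of total RNA does not read. The question here was whether the mRNA levels of these genes differed between WT and KO BAT, since the study related miR-22 to mTORC1.

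The mature miR-22-3p sequence (RefSeq, GRCm38.p6, chr11:75463772-75463793, plus strand) is shown because it is the molecule the KO mice lack. Capitals mark the seed, bases 2 to 8.
mmu-miR-22-3p: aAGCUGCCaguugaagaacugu

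Sequences around the transcription start of the members were compared with those of all genes, and their relation to the levels was not tested. RefSeq promoter windows of 300 bases, 250 before and 50 after the start, were given for 62 members in 74 windows, against 32851 windows of all genes. The letters CCGGAAG, a core bound by ETS family factors, occurred on either strand in 35.1% of member windows and 8.86% of all windows. The letters CTTTCC, a pyrimidine run, lay on the sense strand within 20 bases of the start in 14.9% of member windows and 1.95% of all windows. On the antisense strand CTTTCC was found in 0 of 74 member windows and 1.74% of all windows. The letters TATAAA on either strand within the 50 bases before the start were in 0 member windows and 3.5% of all windows. The motifs were not searched for overlap with one another, and a match is a description of letters only. The windows below run from 60 bases before the start through the first 20 transcribed bases in GRCm38.p6, with CTTTCC and CCGGAAG in capitals on either strand. *Rps27* (chr3:90213629-90213708, minus strand) and *Rpl38* (chr11:114668520-114668599, plus strand) hold such a match. *Rplp2* (chr7:141447591-141447670, plus strand) holds neither set of letters exactly, but its transcribed bases begin with the pyrimidines ctttc. *Rpl3l* (chr17:24727766-24727845, plus strand) is the member whose level varied most between mice.
Rps27: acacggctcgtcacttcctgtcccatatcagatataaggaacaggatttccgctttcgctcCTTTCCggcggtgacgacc
Rpl38: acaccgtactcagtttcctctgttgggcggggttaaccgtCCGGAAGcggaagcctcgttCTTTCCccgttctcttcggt
Rplp2: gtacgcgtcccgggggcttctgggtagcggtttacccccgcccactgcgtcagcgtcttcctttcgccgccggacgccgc
Rpl3l: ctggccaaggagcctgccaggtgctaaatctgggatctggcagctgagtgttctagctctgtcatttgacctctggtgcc

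The libraries were compared first. The 75th percentile of the spot intensities, by which each array was scaled, was 1984, 1435 and 1602 in WT 1 to 3 and 2538, 2633 and 1599 in KO 1 to 3. All 10 brown adipocyte markers were detected. The mean of 20 skeletal muscle markers ranged over 7.44 on the log2 scale between arrays and was lowest in WT 3. Over 9 marker lists, two-sided exact permutation tests gave p between 0.1, the smallest that 3 against 3 allows, and 1, and adjusted p of at least 0.54. The macrophage list alone had groups that did not overlap, between 0.80 and 1.05 in WT and between 1.09 and 1.39 in KO (exact p = 0.1, adjusted p = 0.54). The muscle list had an exact p of 0.7 and the nerve list, which differed by -0.41, one of 0.2. The host transcript of miR-22, *Mir22hg*, was higher in KO by 0.75 ± 0.18 (SE, log2, adjusted p = 0.108), and whether its probe lies in the deleted part is not known here, so it does not check the labels. The scanner software marked 34.7% to 84.3% of the 677 member spots per array as uneven or as outliers, against 4.87% to 17.1% of all spots, with the highest shares in WT 3 and KO 1. Marked spots were left out of the test, and counts are also given with them kept.

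All 82 members had a probe, and 81 were well above background on at least 3 arrays. *Rpl10l*, a paralog of *Rpl10* known from testis, was not well above background on any array. With marked spots left out, 58 members could be tested, of which 34 had only 2 values in a group and 43 were read on the probe that was also brightest with marked spots kept. With marked spots kept, 81 were tested.

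Relative to the 75th percentile of each array, nearly all ribosomal protein genes had a small and similar difference toward lower levels in KO, which was close to 0 after quantile normalization and turned positive without scaling, and almost none of them passed the test. With marked spots left out, the median difference of the 58 tested members was -0.27 on the log2 scale, KO minus WT, against -0.03 over all 14711 tested genes. The difference was below 0 for 55 of the 58. Of 962 other bright genes, those at least 3 above the 75th percentile on the log2 scale, 93.8% were below 0. At an unadjusted p under 0.05, the threshold of the study, 1 member fell, *Rpl37*, beside 8.82% of all tested genes. Its direction was set by the filter, which it passed through WT arrays alone. In the other direction 1 rose, *Rps27a*, beside 10% of all tested genes. After Benjamini-Hochberg adjustment over all genes 0 members passed, beside 0.184% of all tested genes (limma). The share of members called was below the background in both directions.

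With marked spots kept, the median difference of the 81 members was -0.28, against -0.06 over all 16110 genes tested, and 80 of the 81 were below 0. Of 1539 other bright genes, 93.7% were below 0. Here 5 members fell at an unadjusted p under 0.05, beside 11.1% of all tested genes, namely *Rpl37*, *Rpl32*, *Rpl23a*, *Rpl30* and *Rps29*. None rose (0 of 81), beside 9.47% of all tested genes, and 0 passed the adjusted threshold, beside 0.472% of all tested genes. For 11 of 81 members the 3 KO values all lay under the 3 WT values, beside 17.1% of all tested genes. The counts of calls therefore lay below the background although nearly all members, like most other bright genes, had a difference of the same sign.

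**Figure D1:**
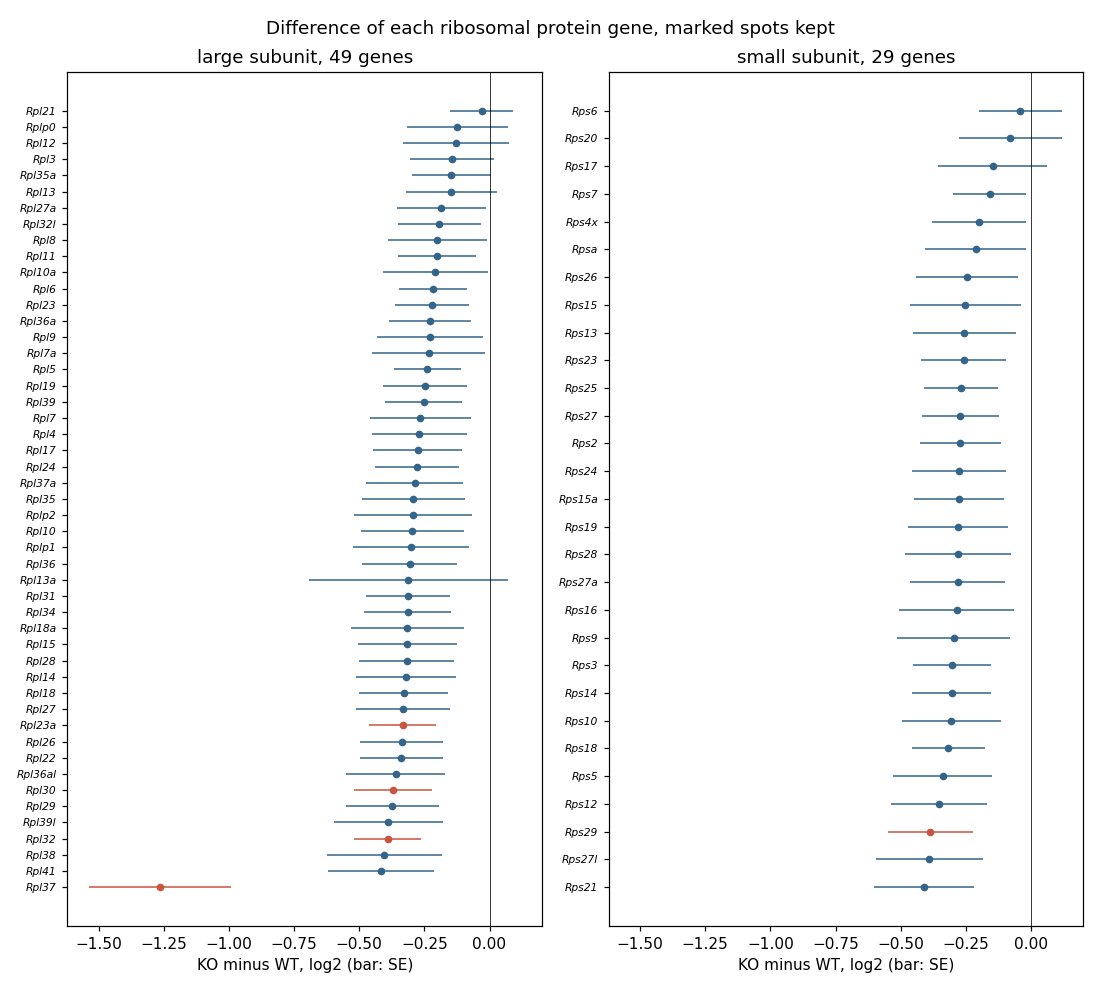
Differences of 78 of the 81 tested members between KO and WT on the log2 scale with marked spots kept, by subunit, with the SE as the bar. Arrays were scaled to the 75th percentile. The 5 members in red had an unadjusted p under 0.05. *Rpl3l* is among those not drawn, and most of the others lie near -0.28.

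The members varied little among themselves. Leaving out *Rpl37* and *Rpl3l*, the differences of the other 79 had an SD of 0.09, and 60 of the 79 lay within 0.1 of their median. The lowest of them was *Rpl41* at -0.42. The medians were -0.29 over 50 large subunit genes and -0.28 over 31 small subunit genes. Several probes were detected for 47 members, and the differences of a gene's probes had a median range of 0.11. *Rpl13a*, named after its values were seen, was the widest of the bright members, at 4.49, 3.42 and 4.06 in WT and 3.55, 4.37 and 3.12 in KO, on a single spot marked on 4 of the 6 arrays. The differences of a gene's probes were opposite in sign for 5 of the 47, *Rpl12*, *Rpl3*, *Rpl7*, *Rpl9* and *Rps27a*.

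The mice did not separate by genotype. The median level of the 81 members relative to the 75th percentile was 4.45, 4.75 and 4.56 in WT 1 to 3 and 4.19, 4.20 and 4.56 in KO 1 to 3. KO 1 and KO 2 were lower than all WT mice, whereas KO 3 lay at the level of WT 3. WT 2 was the highest array for 69 of 81 members, and KO 1 or KO 2 was the lowest for 42 and 36 of them. Over all 16110 tested genes, WT 2 was the highest for 5215, and KO 1 and KO 2 were the lowest for 2947 and 4274. For 74 of the 79 members other than *Rpl37* and *Rpl3l*, both KO 1 and KO 2 were below every WT mouse, and for 67 of the 79, KO 3 was not. The shares of all tested genes with these orders were not counted, so they are not read as particular to the members. Without KO 3 the count of members that fell was 37 of 81 with marked spots kept, beside 13.4% of all tested genes, and 9 of 58 with marked spots left out, beside 9.69% of all tested genes. The first of these settings was chosen after the data were seen. As KO 3 lay at the WT level, leaving it out was bound to widen the difference, so these counts are no support for a fall. Leaving out any other array gave 1 to 9 members with marked spots kept and 1 to 3 with them left out. The shares of all genes beside the counts with marked spots kept are given in the last section. The mean of the 8 adipocyte markers, the genes of the fat cell itself, was 4.14, 4.44 and 4.20 in WT and 3.88, 3.89 and 4.35 in KO, with the lowest values in KO 1 and KO 2 as for the members (exact p = 0.3). Within this list *Cebpa* differed by 0.11 ± 0.16 and *Lipe* by 0.01 ± 0.15, and the others were below 0. The 10 brown adipocyte markers had another order, at 2.15, 2.51 and 2.39 in WT and 2.26, 1.84 and 2.40 in KO (exact p = 0.6). The parts of the adipocyte, macrophage and nerve markers in the members' differences were not tested.

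**Figure D2:**
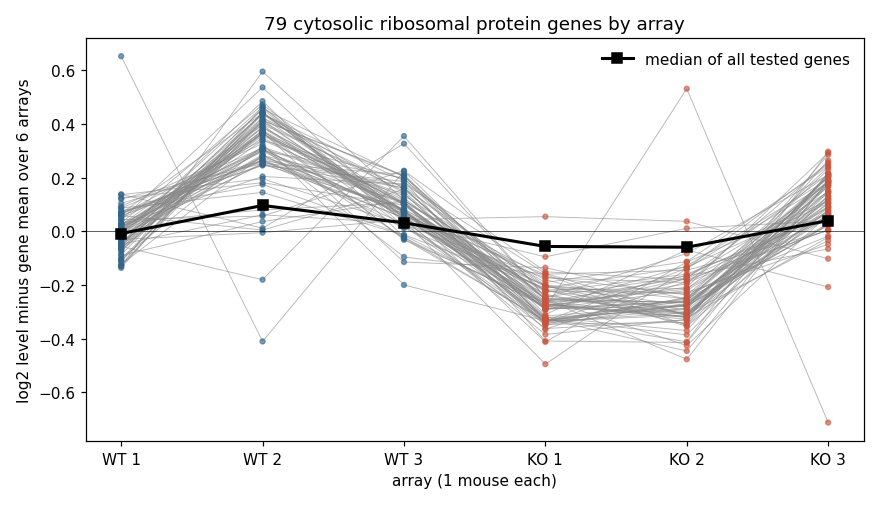
Log2 level of each of 79 members (gray lines, points colored by genotype) relative to its own mean over the 6 arrays, with marked spots kept and *Rpl37* and *Rpl3l* left out. The black line is the median of all 16110 tested genes. With 75th percentile scaling, the members were high in WT 2 and low in KO 1 and KO 2, and in KO 3 they lay within the WT range.

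The scaling of the arrays moved with this pattern. Before scaling, the median intensity of the members was 43393, 38695 and 37809 in WT 1 to 3 and 46206, 48521 and 37788 in KO 1 to 3, so that KO 1 and KO 2 had the highest values. The 75th percentile was also highest in these 2 arrays and lowest in WT 2. The ratio of the members to it was 21.9, 27.0 and 23.6 in WT and 18.2, 18.4 and 23.6 in KO. Without scaling, the median difference of the 58 members was 0.09, against 0.37 over all genes. With quantile normalization, which gives all arrays the same distribution of intensities, it was -0.02 over the 58 members, against -0.03 over all genes. There 33 of 58 were below 0, beside 64.2% of 957 other bright genes. In the log2 values deposited by the authors the median difference was -0.02 over 48 members. Other bright genes, those at least 3 above the 75th percentile on the log2 scale, behaved similarly, with a median difference of -0.29 over 1539 genes with marked spots kept and -0.05 over 1538 after quantile normalization. The part of the scaling in the result was not tested beyond these settings.

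**Figure D3:**
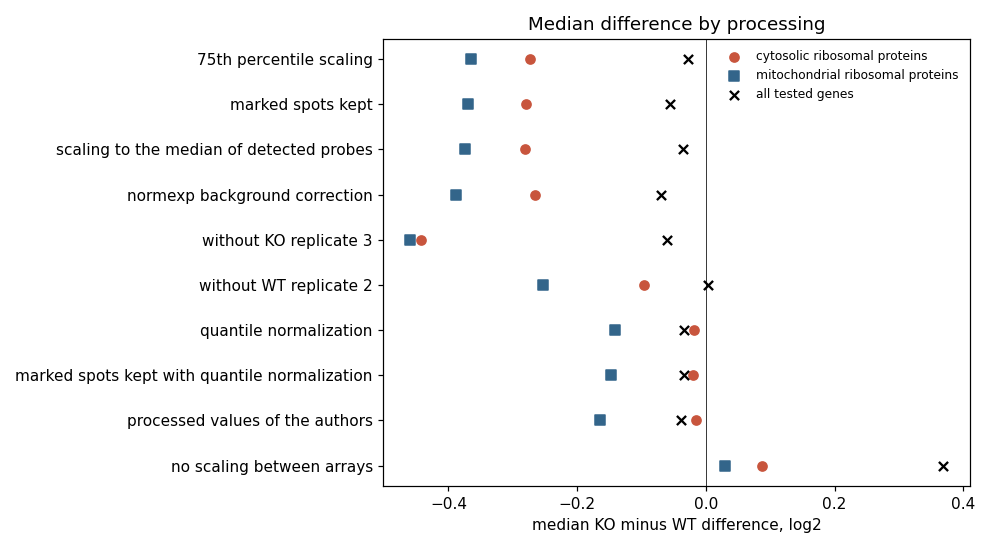
Median KO minus WT difference on the log2 scale under 10 ways of processing, for the cytosolic ribosomal protein genes, the mitochondrial ribosomal protein genes and all tested genes. The cytosolic members lie near -0.27 with 75th percentile scaling, near the median of all genes with quantile normalization and above 0 without scaling.

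Among the members of the large subunit stalk, which recruits the translation factors, the values are given with marked spots kept. *Rplp0* was 4.42, 4.86 and 4.38 in WT and 4.36, 4.24 and 4.70 in KO, a difference of -0.12 ± 0.19 (SE). *Rplp1* was 4.13, 4.63 and 4.22 in WT and 3.68, 4.04 and 4.36 in KO, a difference of -0.30 ± 0.22. *Rplp2* was 4.82, 5.23 and 4.92 in WT and 4.52, 4.44 and 5.14 in KO, a difference of -0.29 ± 0.23. The groups overlapped for all 3 genes.

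*Rps6* encodes the substrate of the S6 kinases downstream of mTORC1. With marked spots left out it differed by -0.24 ± 0.22. With marked spots kept another probe was brightest, at 4.03, 4.16 and 4.24 in WT and 3.93, 4.01 and 4.37 in KO, with overlapping groups and a difference of -0.04 ± 0.16, but 95% of its spots were marked. The next values are with marked spots kept. *Rpsa*, which also encodes a laminin receptor precursor, differed by -0.21 ± 0.20. *Rps14* and *Rps19*, small subunit genes mutated or deleted in human disorders of red cell production, differed by -0.31 ± 0.15 and -0.28 ± 0.19. *Rpl5* and *Rpl11*, whose products bind Mdm2 when ribosome assembly fails, differed by -0.24 ± 0.13 and -0.20 ± 0.15. None of these 6 genes passed the unadjusted threshold.

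The members that fell with marked spots kept, besides *Rpl37*, were bright on all arrays, but many of their spots were marked. Over the 6 arrays the marked share was 66.7% for the probe of *Rpl32*, 75% for *Rpl23a*, 81.7% for *Rpl30* and 50% for *Rps29*. With marked spots left out, *Rpl32* and *Rps29* could not be tested, and *Rpl23a* and *Rpl30* did not pass the unadjusted threshold. *Rpl32* was 4.02, 4.15 and 4.11 in WT and 3.59, 3.83 and 3.69 in KO, a fall of 0.39 on the log2 scale (SE 0.13, adjusted p = 0.176, limma). *Rpl23a* was 4.63, 4.81 and 4.75 in WT and 4.34, 4.33 and 4.51 in KO, a difference of -0.33 ± 0.13 (adjusted p = 0.216, limma). *Rpl30* differed by -0.37 ± 0.15 and *Rps29* by -0.39 ± 0.16. On the probes read here, every KO mouse was below every WT mouse in all 4 genes, all of which encode core components of the subunits. The genes were taken by their p, so this separation adds no support. On the other probes of *Rps29* the groups overlapped, with KO 3 at 4.31 and 4.01 against WT 1 at 4.13 and 3.98. On the other probes of *Rpl23a* and *Rpl30* they did not. After quantile normalization with marked spots kept, *Rpl37* was the only member called lower, beside 10.6% of all tested genes.

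*Rpl37*, a large subunit gene with a single probe, had the smallest p of the members. Its scaled log2 signal was -4.71, -5.30 and -4.53 in WT and -6.56, -5.95 and -5.84 in KO. The groups did not overlap, but the probe was dim, at 75.6, 36.3 and 69.3 intensity units in WT and 26.9, 42.6 and 28.0 in KO, and was well above background on 3 WT and 0 KO arrays. The median intensity of the members was 43393 in WT 1, so this probe was far dimmer than the family. The level in KO is therefore only a bound, and the WT mean lay 1.50-fold above it (adjusted p = 0.0957, limma, on the measured values). The bound sets the WT mean against, per KO array, the higher of the probe's own signal and the lowest signal among probes well above background. In KO 1 that lowest signal was -4.60, above WT 1 and WT 2, so the bound concerns the group means and not each mouse. With normexp background correction the measured difference was -0.68, against -1.26 with the background subtraction of the scanner software. As *Rpl37* passed the filter through the WT group alone, it had to be lower in KO, and its p is no support for a fall.

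*Rps27a*, which encodes a fusion of ubiquitin with a small subunit protein, was called higher on a dim second probe. This probe read -4.71, -4.27 and -4.23 in WT and -3.63, -3.92 and -3.93 in KO, a difference of 0.57 ± 0.18 (adjusted p = 0.177, limma). The brightest probe of the gene could not be used with marked spots left out. With marked spots kept it read 4.73, 5.08 and 4.81 in WT and 4.45, 4.43 and 4.90 in KO, a difference of -0.28 ± 0.18. The direction of *Rps27a* thus depended on the probe.

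Other members taken by smallest p with marked spots left out did not pass the unadjusted threshold, among them *Rpl23a* (-0.48 ± 0.21), *Rps3* (-0.34 ± 0.17), *Rpl27* (-0.33 ± 0.17) and *Rpl38* (-0.40 ± 0.22). *Rps3* encodes a protein at the mRNA entry channel, and *Rpl38* is known for selective translation of Hox mRNAs in the embryo. *Rpl41*, whose product is the smallest ribosomal protein, was with marked spots kept 4.91, 5.40 and 4.91 in WT and 4.48, 4.53 and 4.95 in KO, a difference of -0.42 ± 0.20. With marked spots left out, WT 3 and KO 1 had no value and the difference was -0.41 ± 0.27.

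Several members have a paralog in the family, and their values are given with marked spots kept. *Rpl39* and *Rpl39l* differed by -0.25 ± 0.15 and -0.39 ± 0.21, *Rps27* and *Rps27l* by -0.27 ± 0.15 and -0.39 ± 0.20, *Rpl36a* and *Rpl36al* by -0.23 ± 0.16 and -0.36 ± 0.19, and *Rpl7* and *Rpl7a* by -0.26 ± 0.19 and -0.23 ± 0.22. *Rpl10* differed by -0.30 ± 0.20, *Rps4x* by -0.20 ± 0.18 and *Rpl22* by -0.34 ± 0.16. None of these passed the unadjusted threshold. *Rps4l*, annotated as a pseudogene and no member, read 2.38, 3.07 and 2.43 in WT and 1.99, 1.85 and 2.23 in KO. Probes of near-identical paralogs and pseudogenes may share signal, which was not tested.

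*Rpl3l*, the paralog of *Rpl3* expressed in striated muscle, was the exception in the family. It read -1.16, -2.69 and -7.99 in WT and -3.06, 0.77 and -2.46 in KO, and was well above background on all arrays but WT 3. The groups overlapped, and the fitted difference was 2.36 ± 1.82 (unadjusted p = 0.236 with limma, adjusted p = 0.502), which takes WT 3 at a value below background and so is no measured size. The mean of the 20 skeletal muscle markers was 2.51, 1.68 and -3.97 in WT and 0.26, 3.47 and 1.61 in KO, with the lowest value in WT 3 and the highest in KO 2, as for *Rpl3l*. *Rpl3* itself read 4.17, 4.23 and 4.07 in WT and 3.80, 3.95 and 4.28 in KO. The difference of *Rpl3l* rested on WT 3 and was 0.34 without that array. With the muscle markers as a covariate it was 0.57. With the same covariate, the median difference of the 58 members was -0.26.

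**Figure D4:**
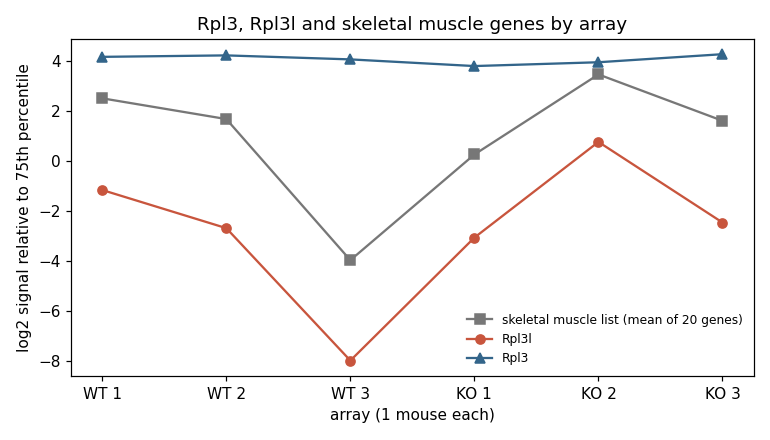
Log2 signal relative to the 75th percentile of the array for *Rpl3*, *Rpl3l* and the mean of 20 skeletal muscle markers, by array. *Rpl3l* and the muscle markers were lowest in WT 3 and highest in KO 2, whereas *Rpl3* stayed between 3.80 and 4.28. Signals of different probes cannot be compared in height.

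Other gene lists of translation are given beside the members. Of 53 tested mitochondrial ribosomal protein genes, which serve the separate ribosome of the mitochondria, 15 fell, or 28.3%, and 0 rose at an unadjusted p under 0.05, beside the 8.82% and 10% of all tested genes given above, with a median difference of -0.36. Keeping marked spots, 35 of 78 fell, beside 11.1% of all tested genes. The smallest p were those of *Mrpl54* (-0.58 ± 0.15), *Mrps27* (-0.56 ± 0.15) and *Mrps14* (-0.56 ± 0.16). After quantile normalization their median was -0.14 and 8 of 53 fell, beside 10.2% of all tested genes. Of 38 translation factors and other TOP mRNAs 3 fell, *Eif4ebp1* (-0.63 ± 0.18), *Eif5b* (-0.46 ± 0.17) and *Eif4b* (-0.37 ± 0.15), with a median of -0.15. This share, 7.89%, lay below the background of 8.82%. With marked spots kept 7 of 51 fell, a share above the background of 11.1% of all tested genes. *Eif4ebp1* encodes a repressor of cap-dependent translation that mTORC1 inactivates. The list of ribosome assembly factors also held other genes of ribosome production, such as *Myc* and *Polr1e*. Of its 71 tested genes 0 fell and 4 rose, a share of 5.63% that lay below the background of 10%, with a median of 0.03. Keeping marked spots, 3 of 81 fell, beside 11.1% of all tested genes, and 4 rose, beside 9.47%. Those that rose with marked spots left out included *Tsr1* (0.82 ± 0.15), which acts in maturation of the small subunit, *Myc* (1.40 ± 0.40), a transcription factor that promotes ribosome production, and *Polr1e* (0.60 ± 0.22), a subunit of RNA polymerase I. None of the genes named in these 3 lists passed the adjusted threshold, and the differences between the lists were not tested. In bulk tissue, fewer cells of a type and less RNA per cell cannot be told apart.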

How the data were processed

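BAT RNA of 3 WT and 3 KO mice was hybridized to single-dye arrays. The deposited scanner files hold intensity values from Agilent Feature Extraction (11.5.1.1 in the headers, 10.7 in the submitters' processing notes), background-subtracted and detrended but not scaled between arrays. The authors also deposited a table of log2 values of 27497 probes, whose processing is not given in the sources used here.

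Each processed signal was put on the log2 scale after scaling each array to its 75th percentile, control spots aside. Spots marked as uneven or as outliers were not used. Testing required a probe to exceed background clearly on 3 or more arrays, with at least 2 unmarked values per group. Probes were matched to genes by RefSeq accession (33767 of 56605 probes), and a gene was read on its brightest probe that could be tested. The comparison used limma 3.58.1 (lmFit and eBayes, two-sided) in R 4.3.3, with Benjamini-Hochberg adjustment over all genes. The steps were run on simulated data with planted changes far larger than those of most members and errors independent between genes. That run therefore does not bear on small differences shared by many genes of an array. Precision is limited by 3 arrays per group. The labels do not pair the mice, whose numbers here follow accession order.

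Named genes were a fixed set (stalk genes, *Rps6*, *Rpsa*, paralog pairs and disease genes), up to 6 more in each direction by smallest p, and up to 3 in each direction per comparison list. Of these, 2 members are not reported here. The members and lists were chosen with earlier results of these data known. Alternatives were quantile or median scaling, normexp with an offset of 50, the authors' values, marked spots kept, other probe filters, the mean of probes, SAM, a trended robust fit, slide row, skeletal muscle and each array left out.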

Additional observations from a re-analysis of the deposited data

How the results depend on the processing

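With 75th percentile scaling, 1 member fell (beside 8.82% of all genes), 1 rose (beside 10%) and the median difference was -0.27. The fall count was 5 with marked spots kept (beside 11.1%), 3 with normexp (beside 8.98% of all genes), 2 with the authors' values (beside 11.8%) and 0 when all 6 arrays had to be above background. The rise count was 0 with marked spots kept, beside 9.47% of all genes. It was 2 without a filter on dim probes and 0 with quantile normalization (with or without marked spots), normexp or the authors' values. Counts in this paragraph without a share of all genes beside them are not read as results about the members. The median was -0.02 with quantile normalization, with marked spots left out (-0.019) or kept (-0.020), and -0.016 with the authors' values. Leaving out 1 array gave 1 to 9 members that fell (9 without KO 3, 3 without WT 1, beside 9.69% and 7.24% of all genes), 0 to 1 that rose and medians of -0.44 (without KO 3) to -0.10 (without WT 2). The row of the slide, which held WT 1 and WT 2 apart from the other 4 arrays, gave a median of -0.24 as a block. For members with a value in WT 3, the fit equals the comparison within the second row, with WT 3 as the only WT array. Members with no unmarked value in WT 3, such as *Rpl41* and *Rps6*, had only WT 1 and WT 2 in WT. Their differences were not adjusted for the row. Alternatives chosen after seeing the data were no scaling, with a median of 0.087, and marked spots kept with a further change. In the latter, the members that fell numbered 9 without WT 1, 2 without WT 2, 1 without WT 3, 1 without KO 1, 2 without KO 2, 37 without KO 3 and 2 with the muscle covariate, beside 9.45%, 6.90%, 7.49%, 7.27%, 8.08%, 13.4% and 8.03% of all genes, with 0 that rose in each of these. With slide row as a block, 1 fell, beside 3.08% of all genes, and 1 rose, *Rpl3l*, a fit in which WT 3, below background for that gene, is the only WT array of its row. The cause of these changes was not tested.

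Of the values of single named members under the settings listed in the methods, 341 kept their direction and their side of the unadjusted threshold, 7 passed it only under the alternative and 6 lost it. Some changed sign. With quantile normalization *Rplp2* was 0.065, *Rps6* 0.033, *Rpl3* 0.12, *Rpl7a* 0.038 and *Rps14* 0.019. With quantile normalization and marked spots kept *Rps6* was 0.20, *Rpl3* 0.091, *Rpl36a* 0.0053, *Rpl7a* 0.054 and *Rps27a* -0.011. With the authors' values *Rplp2* was 0.011, *Rps6* 0.10, *Rpl3* 0.31, *Rpl7a* 0.077 and *Rps14* 0.040. With marked spots kept *Rps27a* was -0.28. *Rplp2* was 0.035 with the muscle covariate, 0.0081 without WT 2 and 0.11 without KO 1, in a range of -0.51 to 0.11 when 1 array was left out. *Rpl3* was 0.077 and *Rpl7a* 0.057 without KO 2, and *Rpl7a* was 0.063 without WT 2, in ranges of -0.25 to 0.077 and -0.51 to 0.063. No paired analysis was possible because the labels carry no replicate numbers, and the numbers 1 to 3 used here follow accession order. Signal over background limits *Rpl37* and *Rpl10l* most.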
